A study of Mus musculus with 32 samples.

Results

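The 36 genes described here are targets and regulators of the sterol regulatory element-binding proteins (SREBPs), measured in brain arteries of mice with altered Notch3. They were found by matching their symbols to the Ensembl identifiers of the deposited count table, which holds 55357 genes. All 36 were found with 1 identifier each, and all 36 passed the filter on low counts in every comparison. The list holds 19 enzymes of sterol synthesis, 11 genes of fatty acid synthesis and desaturation, 4 regulators and 2 genes of sterol handling. The members were chosen by their known roles and with the fold changes of these same libraries in view, above all those of TgNotch3R169C against WT mice, so the values in that comparison are a description and give no independent support to the choice.

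RNA sequencing covered 32 mice in 4 groups of 8, with 1 library of brain arteries per mouse. Notch3-/- mice, which lack a functional Notch3 gene, and Notch3+/+ mice were 3 months old. TgNotch3R169C mice and their WT littermates, labeled non-Tg, were 12 months old. The TgNotch3R169C line, a model of the small vessel disease CADASIL, overexpresses rat Notch3 with the R169C mutation from a phage P1-derived artificial chromosome and keeps its own mouse Notch3. The study gives the X chromosome as the place where this transgene integrated, and used both sexes. None of the mice was treated, and both lines were backcrossed to C57BL/6. The study asked whether loss or gain of Notch3 activity, or another effect of the mutant protein, accompanies the loss of arterial smooth muscle cells. The lines were sampled at different ages.

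SREBPs are membrane-bound transcription factors that are held in the endoplasmic reticulum while sterols are plentiful. When sterols fall, the escort protein SCAP carries them to the Golgi, where proteases release the part that enters the nucleus and switches on the genes for making and taking up lipids. The protein encoded by Srebf2 acts mainly on sterol synthesis and that encoded by Srebf1 mainly on fatty acid synthesis. Brain tissue makes its own cholesterol, largely in glial cells, because plasma lipoproteins do not cross the blood-brain barrier.

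Total counts per library ran from 20289487 to 54481934, and the members' counts ran from 21 for Idi1 in 1 WT library to 67284 for Scd2 in 1 TgNotch3R169C library. Notch3 itself was at 13.7 to 18.5 CPM (reads per 1000000, on library sizes scaled by TMM) in Notch3-/- mice and at 65.8 to 98.1 CPM in Notch3+/+ mice, and it was at 108 to 219 CPM in TgNotch3R169C mice against 60.1 to 85.0 CPM in WT mice, so no library went against its label. The tissue held more than arteries. Summed over its 8 markers, smooth muscle ran from 1128 to 4238 CPM, and the 7 astrocyte markers summed to between 2738 and 4040 CPM. The 5 markers of adipocytes, cells known for fatty acid synthesis, never exceeded a sum of 2.47 CPM. The lowest of them, Lep, was at 0 CPM on average in each group, and the highest, Adrb3, averaged at most 0.936 CPM, in WT mice. Choroid plexus markers separated 7 libraries from the other 25: replicate 8 of Notch3-/-, replicates 5 and 8 of TgNotch3R169C, and replicates 2, 4, 5 and 6 of WT had a mean of 7.26 to 8.70 log2 CPM over the 7 markers, whereas the others had at most 4.52. By Xist and Ddx3y, replicates 1 to 4 of every group were males and replicates 5 to 8 females.

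The promoters were searched for the elements to which SREBPs and their partner NF-Y bind. RefSeq promoter windows on GRCm38.p6, 250 bases before to 50 bases after each start, were held for 29 of the 36 members. Entries were not held for Fads1, Fdft1, Fdps, Scd1, Scd2, Sqle and Stard4. The 250 bases before the start are printed for the members that were called in TgNotch3R169C mice or that differed between the mutants and belong to the sterol branch or the regulators, and for Hmgcs1, the only member with the last 9 letters of the sterol regulatory element. The capitals mark CCAAT or its complement ATTGG (the box bound by NF-Y, a partner of SREBPs), CACGTG (an E-box, which SREBPs also bind), and TCACNCCAC or ATCACNCCA (the last and the first 9 letters of the 10-letter sterol regulatory element).
Hmgcs1 (chr13:119690101-119690350, plus strand): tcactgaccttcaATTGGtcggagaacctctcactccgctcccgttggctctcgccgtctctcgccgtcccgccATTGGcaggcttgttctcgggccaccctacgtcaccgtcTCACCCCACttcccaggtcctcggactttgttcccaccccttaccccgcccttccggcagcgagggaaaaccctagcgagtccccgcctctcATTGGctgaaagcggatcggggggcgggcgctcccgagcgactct
Msmo1 (chr8:64733579-64733828, minus strand): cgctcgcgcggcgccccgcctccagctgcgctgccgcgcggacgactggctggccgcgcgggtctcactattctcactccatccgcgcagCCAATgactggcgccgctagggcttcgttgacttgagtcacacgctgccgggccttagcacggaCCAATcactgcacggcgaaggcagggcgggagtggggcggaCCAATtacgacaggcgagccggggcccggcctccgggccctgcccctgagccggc
Sc5d (chr9:42264301-42264550, minus strand): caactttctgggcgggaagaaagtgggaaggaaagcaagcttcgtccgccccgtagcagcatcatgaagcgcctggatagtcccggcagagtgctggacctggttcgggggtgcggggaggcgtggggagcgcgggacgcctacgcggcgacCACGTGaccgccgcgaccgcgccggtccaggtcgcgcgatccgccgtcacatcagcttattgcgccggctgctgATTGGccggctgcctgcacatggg
Srebf2 (chr15:82147019-82147268, plus strand): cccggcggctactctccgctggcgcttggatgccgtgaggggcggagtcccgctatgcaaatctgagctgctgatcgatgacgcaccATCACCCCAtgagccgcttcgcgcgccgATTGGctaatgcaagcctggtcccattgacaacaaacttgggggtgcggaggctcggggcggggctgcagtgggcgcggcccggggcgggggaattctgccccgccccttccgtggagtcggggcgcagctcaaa

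Msmo1 held 3 CCAAT boxes, starting at -160, -96 and -55 from its start, and no E-box. Sc5d held an E-box at -98 and ATTGG at -24, and Srebf2 held ATTGG at -135. Hmgcs1 held TCACCCCAC at -137 with ATTGG at -237, -176 and -45. The first 9 letters of the sterol regulatory element, a search added after the Srebf2 window had been read, stood at -163 in Srebf2, and in 0.992% of all 27025 genes of the table. Searched on both strands over the whole window, CCAAT was present in 23 of the 29 members (79.3%) and in 41.1% of all genes. By branch, it was in 15 of 16 sterol genes and in 4 of 8 fatty acid genes. The only window of Acaca, 1 of those 8, held none of these letters, and since its end resembles a splice acceptor it may not be a promoter and is not printed. CACGTG was found in 5 of 29 members (17.2%) against 8.09% of all genes, and TCACNCCAC in 1 of 29 (3.45%) against 1.44%. The full 10-letter element was in 0 of 29 members and in 0.270% of all genes. These shares describe letters in a fixed window and were not tested.

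Per kilobase of exon, averaged over the 32 mice, the desaturases led the list. Scd2, a stearoyl-CoA desaturase, stood at 185 CPM per kb, Scd1 at 56.9, Fads1 at 47.6 and Fads2, which like Fads1 desaturates polyunsaturated fatty acids, at 37.7. The highest sterol enzyme was Hmgcs1 at 33.2 CPM per kb, close to Srebf2 at 32.6. Idi1 at 0.356 and Fdps at 0.747 CPM per kb were the lowest. Both have near-identical copies elsewhere in the genome with which they can share reads, as do Acat2 and its neighbor Acat3, so their levels are uncertain.

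In brain arteries of Notch3-/- mice the sterol and fatty acid genes stayed close to their levels in Notch3+/+ mice. None of the 36 members passed the edgeR quasi-likelihood test at an adjusted p below 0.05, where 0.649% of the 17714 genes tested did. At an unadjusted p below 0.05 there was 1 member, Sc5d, against 7.69% of all genes, and by DESeq2 and by limma voom the number called was 0 as well. The median log2 fold change was -0.04 over the 19 sterol genes, of which 16 were below 0, and 0.03 over the 11 fatty acid genes, of which 8 were above 0. The fatty acid median was 0.0016 without Notch3-/- replicate 8, and with the smooth muscle list as a covariate the medians were -0.14 for the sterol and -0.059 for the fatty acid genes. Over all genes tested the median was -0.0011, with 49.5% above 0. The groups overlapped for all 36 members, and 0.0903% of all genes had every Notch3-/- mouse above every Notch3+/+ mouse and 0.231% the reverse.

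The 4 members with the smallest p in Notch3-/- mice were Sc5d, Me1, Idi1 and Sqle. Sc5d, the desaturase of a late step of cholesterol synthesis, was at 73.0, 79.6 and 89.4 CPM (lowest, median and highest of 8 mice) in Notch3-/- mice and at 79.3, 85.3 and 93.9 CPM in Notch3+/+ mice, or -0.10 on the log2 fold scale (SE 0.0437, edgeR adjusted p = 0.578). Me1, the malic enzyme that supplies NADPH for lipid synthesis, was at 13.9, 16.9 and 37.2 CPM against 12.8, 14.7 and 16.9 CPM, with a log2 fold change of 0.34 (SE 0.164, edgeR adjusted p = 0.671). The highest Me1 value belonged to replicate 8, the Notch3-/- library rich in choroid plexus RNA, and the change was 0.13 without it. Idi1, which isomerizes isopentenyl pyrophosphate, was at 0.659, 1.05 and 1.38 CPM against 0.933, 1.08 and 2.78 CPM (-0.37, SE 0.219, edgeR adjusted p = 0.791). Without Notch3+/+ replicate 5, the highest of its group, the Idi1 change was -0.13. Sqle, the squalene epoxidase that controls the flow into sterols, was at 35.5, 48.6 and 62.2 CPM against 43.9, 55.7 and 70.6 CPM (-0.15, SE 0.108, edgeR adjusted p = 0.863), and at -0.08 without the same Notch3+/+ library. None of the 4 passed the test, and the ranges of the groups overlapped for each. These values stood beside lower smooth muscle markers, of which 6 of 8 were called lower with a median log2 fold change of -0.63, and oligodendrocyte markers with a median of 0.38 and 0 of 8 called. Choroid plexus markers had a median of 2.83 (7 of 7 above 0, 0 called, summed level 226 to 24843 CPM against 310 to 651 CPM) and red cell markers one of 0.42 (5 of 5 above 0, 0 called). The part of these markers in the members' values was not tested, and in whole arteries fewer cells of a type cannot be told apart from less RNA per cell.

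In TgNotch3R169C mice most members stood above their level in WT mice, in both branches. Of the 36, 4 were called, all higher, where 0.113% of the 17731 genes tested were called, 0.102% higher and 0.0113% lower. These were Sqle, Msmo1, the transcription factor gene Srebf2, and Acaca, and they belong to the values with which the list was chosen. The median log2 fold change was 0.20 over the 19 sterol genes (17 above 0), 0.24 over the 11 fatty acid genes (10 above 0) and 0.23 over the 4 regulators (3 above 0), and over all genes tested it was -0.0074 with 47.0% above 0. At an unadjusted p below 0.05 there were 23 members, all higher, beside 7.27% of all genes in either direction. The whole groups did not overlap for Sqle, Sc5d and Srebf2, and 0.130% of all genes had every TgNotch3R169C mouse above every WT mouse.

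**Figure D1:**
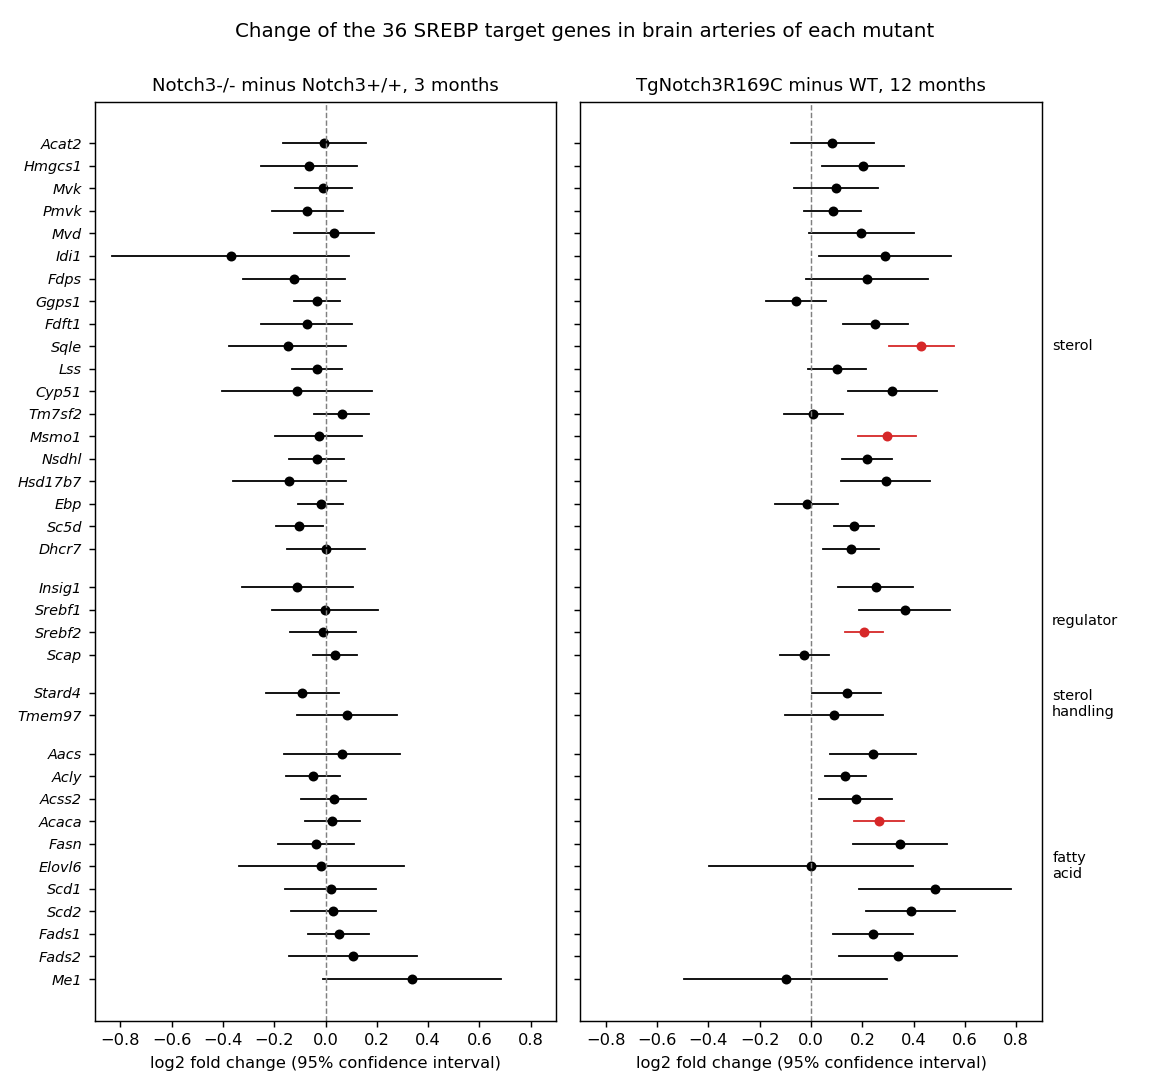
Log2 fold change with 95% confidence interval (horizontal axis) of each of the 36 genes (vertical axis, by branch) in Notch3-/- against Notch3+/+ mice (left) and in TgNotch3R169C against WT mice (right), 8 mice per group. The 4 genes called in TgNotch3R169C mice are red and the left panel has none. Of the 36 points, 32 lie above 0 on the right and 13 on the left.

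Early in the sterol pathway, the 7 mevalonate enzymes were all above 0 and none was called. Without the libraries rich in choroid plexus RNA, Acat2 was below 0, at -0.036. Hmgcs1, which forms HMG-CoA, was at 141, 163 and 201 CPM against 128, 142 and 169 CPM, or 0.20 on the log2 fold scale. The other 6, Acat2, Mvk, Pmvk, Mvd, Idi1 and Fdps, ran from 0.08 to 0.29. Ggps1, which draws farnesyl pyrophosphate off toward protein prenylation, was at -0.06, with a 95% interval of -0.17 to 0.06.

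At the entry into sterols, Sqle was at 55.7, 66.7 and 81.5 CPM in TgNotch3R169C mice and at 46.4, 49.9 and 53.3 CPM in WT mice. Every TgNotch3R169C mouse was above every WT mouse, and the change was 0.43 on the log2 scale (SE 0.0595, 1.35-fold, edgeR adjusted p = 0.00584). Fdft1, the squalene synthase of the step before, had a log2 fold change of 0.25 with all 8 TgNotch3R169C mice above the WT mean (edgeR adjusted p = 0.210), and Lss, the lanosterol synthase that follows Sqle, was at 0.10 (edgeR adjusted p = 0.705). The steps next to Sqle had the same sign without passing the test, but Lss was at -0.0027 without the libraries rich in choroid plexus RNA.

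Among the 8 enzymes from lanosterol to cholesterol, Msmo1, a methylsterol monooxygenase, was called. It was at 75.0, 87.6 and 102 CPM in TgNotch3R169C mice against 67.4, 69.7 and 78.1 CPM in WT mice, or 0.30 on the log2 fold scale (SE 0.0530, 1.23-fold, edgeR adjusted p = 0.0345). All 8 TgNotch3R169C mice were above the WT mean, but the lowest lay within the WT range. Sc5d did not overlap between the groups, at 83.2, 88.3 and 95.9 CPM against 74.1, 79.2 and 83.0 CPM, yet its change of 0.17 (SE 0.0363) had an edgeR adjusted p of 0.134. Nsdhl, which acts after Msmo1 in removing methyl groups, was at 28.8, 30.7 and 34.5 CPM against 24.7, 27.0 and 29.1 CPM (0.22, SE 0.0462, edgeR adjusted p = 0.119). The lanosterol demethylase Cyp51 was at 0.32, Hsd17b7 at 0.29 and the dehydrocholesterol reductase Dhcr7 at 0.16 on the log2 scale. The sterol reductase Tm7sf2 and the sterol isomerase Ebp had log2 fold changes of 0.01 (95% interval -0.11 to 0.12) and -0.02 (-0.14 to 0.11).

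Of the regulators, Srebf2 was at 249, 261 and 287 CPM in TgNotch3R169C mice and at 213, 225 and 243 CPM in WT mice. The groups did not overlap, and the log2 fold change was 0.21 (SE 0.0353, 1.15-fold, edgeR adjusted p = 0.0248). Srebf1 had the larger fold and the wider spread, at 194, 203 and 264 CPM against 135, 166 and 211 CPM (0.37, SE 0.0843, edgeR adjusted p = 0.172). Insig1, an anchor of the SCAP complex in the endoplasmic reticulum and itself an SREBP target, was at 0.25, and Scap at -0.03 (95% interval -0.12 to 0.07). The sterol carrier Stard4 and the sterol-regulated membrane protein Tmem97 were at 0.14 and 0.09, and neither was called.

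**Figure D2:**
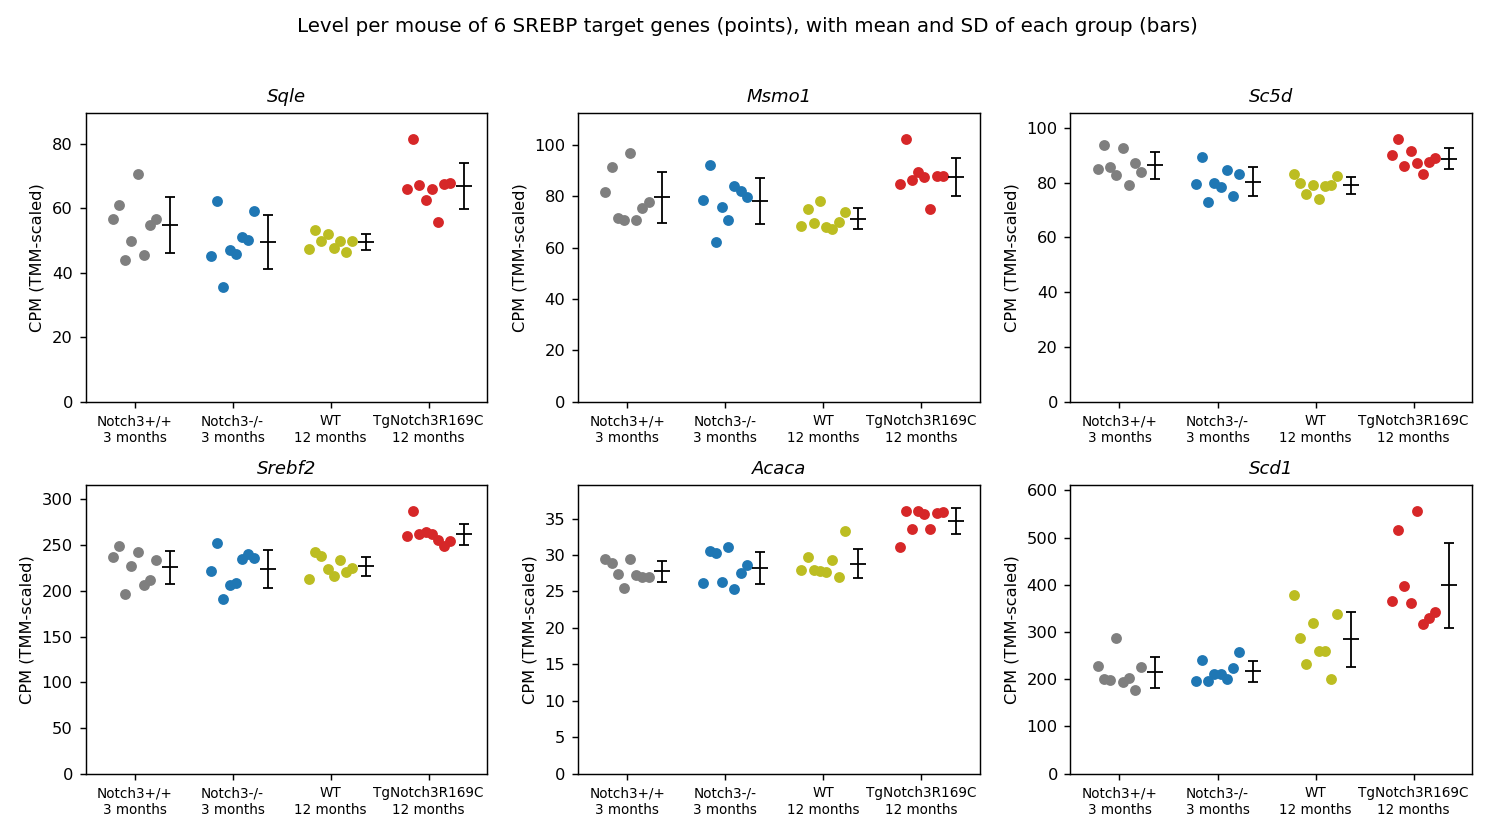
TMM-scaled CPM (vertical axis, from 0) of Sqle, Msmo1, Sc5d, Srebf2, Acaca and Scd1 in each mouse (points), with the mean and SD of the 8 mice of a group (bar to the right). For Sqle, Sc5d and Srebf2 all TgNotch3R169C points lie above all WT points, while the Notch3-/- and Notch3+/+ points overlap in every panel.

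In the fatty acid branch, Acaca, the acetyl-CoA carboxylase of the committed step, was called higher. It was at 31.1, 35.7 and 35.99 CPM in TgNotch3R169C mice and at 27.0, 27.9 and 33.3 CPM in WT mice, or 0.27 on the log2 fold scale (SE 0.0460, 1.20-fold, edgeR adjusted p = 0.0269). The ranges overlapped through 1 WT mouse, replicate 8 at 33.3 CPM, and the other WT mice ended at 29.8 CPM. The 4 desaturases had a median log2 fold change of 0.36, and none was called. Scd1 was at 318, 364 and 555 CPM against 199.6, 274 and 378 CPM (0.48, SE 0.140, edgeR adjusted p = 0.450), and Scd2, Fads1 and Fads2 were at 0.39, 0.24 and 0.34. The synthase gene Fasn was at 0.35 (edgeR adjusted p = 0.254), and the suppliers of acetyl units Acly, Acss2 and Aacs were at 0.13, 0.17 and 0.24. Elovl6, which elongates palmitate, and Me1 had log2 fold changes of 0.00 (95% interval -0.40 to 0.40) and -0.10 (-0.49 to 0.30).

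The branch medians of the TgNotch3R169C changes were similar in both sexes and without the libraries rich in choroid plexus RNA. Single members varied more, and the calls were not kept at the smaller sizes. In males alone (4 against 4) the branch medians were 0.20 for sterol and 0.27 for fatty acid genes, and in females alone 0.19 and 0.27. Mvk averaged 19.7 CPM in TgNotch3R169C against 17.2 CPM in WT males, and 20.2 against 20.1 CPM in females. Hmgcs1 went the other way, at 170 against 157 CPM in males and 160 against 130 CPM in females. In either sex 0 members were called, where 1 of 17854 genes was in males and 2 of 17881 were in females. Leaving out the 2 TgNotch3R169C and 4 WT libraries rich in choroid plexus RNA gave medians of 0.16 and 0.24, and changes of 0.46 for Sqle, 0.31 for Msmo1, 0.23 for Srebf2 and 0.24 for Acaca. In that fit Acat2 and Lss were below 0, at -0.036 and -0.0027. With these 6 against 4 mice 0 members were called, and only 2 of all 18097 genes tested were. The choroid plexus markers themselves had a median log2 fold change of -1.08 in TgNotch3R169C mice (0 of 7 called, summed level 256.8 to 14311 CPM against 261.7 to 25463 CPM in WT mice), smooth muscle markers -0.23 (0 of 8 called) and oligodendrocyte markers -0.07 (0 of 8 called). Neuron markers were at a median of 0.27 (8 of 8 above 0, 0 called, summed level 329 to 985 CPM against 203 to 702 CPM) and astrocyte markers at 0.17 (6 of 7 above 0, 0 called, 3081 to 3840 CPM against 2854 to 3599 CPM), which are of the same sign and similar in size to the members' medians. The part of these markers in the members' values was not tested. With the smooth muscle list as a covariate 1 member was called, and with the replicate number as a block also 1, Sqle (edgeR adjusted p = 0.0451). DESeq2, the test used by the study, called 10 members, adding Fdft1, Nsdhl, Sc5d, Srebf1, Fasn and Scd2 to the 4. The number of all genes it called is not given here, and in simulated data of this design 19.9% of its calls were false, against 9.62% for edgeR. When each library was left out in turn, Sqle was called in all 16 fits, Srebf2 in 9, Msmo1 in 5 and Acaca in 4, with 1 to 5 members called. The number of all genes called is not given for these fits or for those with a covariate or block, so the counts stand without a background.

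Each mouse's mean over a branch restates these values per animal. The means hold the TgNotch3R169C and WT values with which the members were chosen, so they give no independent support. The sterol mean ran from 4.72 to 4.96 log2 CPM in TgNotch3R169C mice and from 4.59 to 4.72 in WT mice. The lowest TgNotch3R169C mouse, at 4.719, lay just above the highest WT mouse, at 4.717. In Notch3-/- mice the sterol mean ran from 4.44 to 4.83 and in Notch3+/+ mice from 4.62 to 4.94. The fatty acid mean ran from 6.58 to 7.15 log2 CPM in TgNotch3R169C mice, 6.34 to 6.74 in WT, 6.23 to 6.71 in Notch3-/- and 6.18 to 6.45 in Notch3+/+ mice, and all these ranges overlapped with their control's. Across the 32 mice, with group means removed, the median pairwise Pearson correlation of log2 CPM was 0.24 within the sterol branch (171 pairs), 0.42 within the fatty acid branch (55 pairs) and 0.22 between the branches (209 pairs), against -0.005 over all gene pairs. The pairs share libraries, depth and tissue makeup, so these are descriptions without a test.

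**Figure D3:**
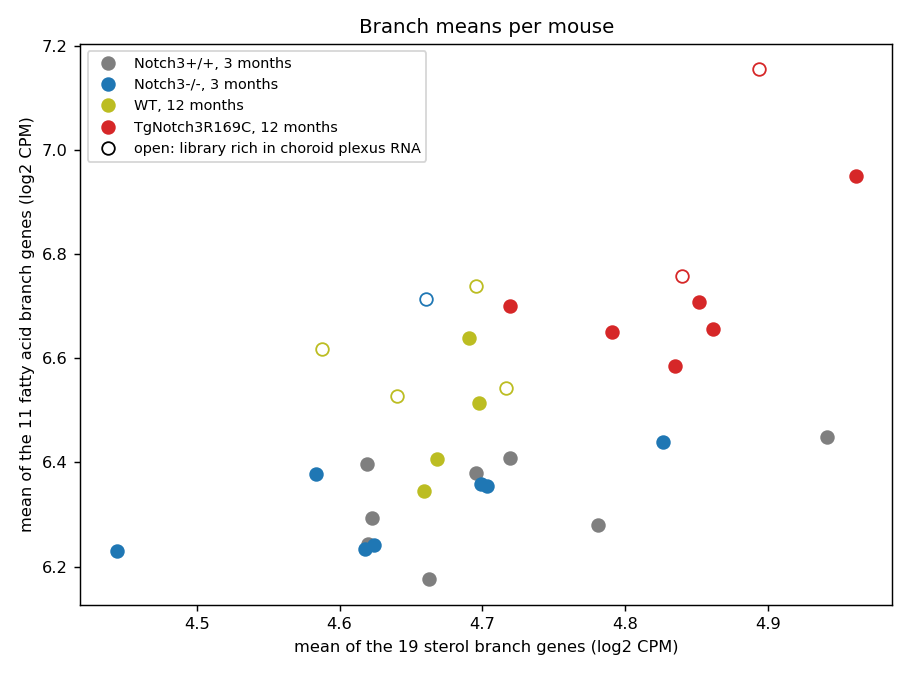
Mean log2 CPM of the 19 sterol genes (horizontal axis) against that of the 11 fatty acid genes (vertical axis) in each of the 32 mice, colored by group, with open points for the 7 libraries rich in choroid plexus RNA. The 8 TgNotch3R169C mice lie at the upper right, at or above 4.72 and 6.58, and on the vertical axis the Notch3-/- mice lie within the range of Notch3+/+ mice except for the open point at 6.71.

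Whether a member's change differed between the mutants was tested as a contrast of the changes, TgNotch3R169C minus WT against Notch3-/- minus Notch3+/+, in 1 fit of all 4 groups. Of the 36 members, 2 were called, where 0.350% of 18555 genes were. This contrast holds the TgNotch3R169C and WT values with which the members were chosen, so its calls give no independent support. Sc5d, slightly lower in Notch3-/- and higher in TgNotch3R169C mice, had a difference of 0.27 on the log2 scale (SE 0.0545, edgeR adjusted p = 0.0106). Sqle had a difference of 0.58 (SE 0.128, edgeR adjusted p = 0.0288). The next members by p were Nsdhl at 0.26 (SE 0.0711, edgeR adjusted p = 0.133) and Acaca at 0.24 (SE 0.0673, edgeR adjusted p = 0.140), and neither was called. The branch medians of this difference were 0.26 for sterol and 0.19 for fatty acid genes, beside 0.0006 over all genes. Since the mutants also differ in age and line, the genotype cannot be told apart from these. Without the 7 libraries rich in choroid plexus RNA 0 members were called, where 39 of 19042 genes were, and the sterol and fatty acid medians were 0.24 and 0.22.

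Between the control groups, WT at 12 months and Notch3+/+ at 3 months, 4 members were called, and 2 of these, Elovl6 and Me1, were smaller in change without the libraries rich in choroid plexus RNA. This comparison shares its mice with the others, and age, line and litter cannot be told apart in it. Of the 36 members 3 were called higher and 1 lower in WT mice, where 3.87% and 4.05% of 17643 genes were. Elovl6 was at 23.8, 28.9 and 51.4 CPM against 17.5, 21.1 and 25.3 CPM, or 0.60 on the log2 fold scale (SE 0.137, edgeR adjusted p = 0.0143). Me1 was at 15.0, 20.5 and 35.9 CPM against 12.8, 14.7 and 16.9 CPM (0.59, SE 0.154, edgeR adjusted p = 0.0272). In the library of highest value, the same WT mouse in both, choroid plexus markers were abundant. Scd1 was at 0.40 (SE 0.120, edgeR adjusted p = 0.0487), and Sc5d was lower, at -0.13 (SE 0.0381, edgeR adjusted p = 0.0443). The medians were -0.04 for the sterol and 0.12 for the fatty acid branch, against 0.0026 over all genes.

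Within WT mice, Elovl6 and Me1 were higher, and Stard4 and Tm7sf2 lower, in every library rich in choroid plexus RNA than in any of the others. How many of all genes separate by this split was not counted in any group, so the values by library class are a description. Elovl6 was at 30.7 to 51.4 CPM in the 4 rich libraries and at 23.8 to 27.1 CPM in the other 4, and Me1 at 21.9 to 35.9 CPM and 15.0 to 19.1 CPM. Stard4 was at 36.5 to 44.3 CPM in the rich libraries and 44.7 to 49.6 CPM in the others, and Tm7sf2 at 22.2 to 26.0 CPM and 26.2 to 29.0 CPM. In Notch3-/- mice, the single rich library held 38.1 CPM of Elovl6 and 37.2 CPM of Me1, and the other 7 held 15.7 to 21.2 CPM and 13.9 to 18.0 CPM. Fads2 was at 174.9 CPM in that library and at 89.1 to 120.5 CPM in the other 7, and Stard4 at 41.2 CPM and 44.8 to 53.6 CPM. In that library Scd1, Scd2, Fads1, Acss2, Fdft1 and Tmem97 were also above all of the other 7, and Acat2, Fdps and Ebp below them. For every gene 1 of the 8 mice is the highest and 1 the lowest. The order in this 1 library therefore does not tie these members to choroid plexus RNA. In TgNotch3R169C mice, Me1 was at 24.4 to 33.1 CPM in the 2 rich libraries and at 14.3 to 23.02 CPM in the other 6, whereas Elovl6 overlapped, at 30.2 to 57.8 CPM and 22.9 to 34.4 CPM. Nsdhl, Lss and Tmem97 were also higher in both rich libraries than in any of the other 6. Choroid plexus markers had a median log2 fold change of 3.97 between the control groups, with 5 of 7 called. Without the WT libraries rich in them, the changes were 0.30 for Elovl6, 0.19 for Me1, 0.42 for Scd1 and -0.11 for Sc5d. With these 4 against 8 mice 0 members were called, where 402 of 18086 genes were. Scd1 and Sc5d kept their size, and Elovl6 and Me1 did not. Oligodendrocyte markers were also higher (median 0.70, 3 of 8 called) and smooth muscle markers lower (median -0.78, 8 of 8 called), and with either list as a covariate 0 members were called. The number of all genes called with these covariates is not given, and the part of these markers in the members' values was not tested.

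A list of 24 other genes of the pathway, among them processing proteases, ubiquitin ligases, SREBP cofactors and further lipid enzymes, was examined beside the members. Of these 23 were tested, and Idi2 was at 0 CPM. None was called in Notch3-/- or TgNotch3R169C mice, and their medians were -0.03 and -0.01. Between the control groups 1 of the 23 was called, where 3.87% of all genes were called higher and 4.05% lower. It was Sp1, a transcription factor that acts with SREBPs, with a log2 fold change of -0.14 (edgeR adjusted p = 0.0286).

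Mid1ip1, on the X chromosome, stood apart from that list, and it is named after its values were seen. Its protein promotes the assembly of acetyl-CoA carboxylase, the product of Acaca, into its active form. It was at 167.9 to 229.8 CPM in the 8 WT mice, at 0 to 0.283 CPM (0 to 12 counts) in the 4 TgNotch3R169C males and at 33.4 to 86.7 CPM in the 4 TgNotch3R169C females. All 8 TgNotch3R169C mice were below all WT mice, which held for 0.0113% of the 17731 genes, 2 in all. In Notch3-/- and Notch3+/+ mice it was at 152 to 232 CPM and 174 to 216 CPM, with no gap between the sexes. The edgeR fit pooled the sexes, although TgNotch3R169C males and females differed in level. This pooled fit gave a log2 fold change of -2.56 with an SE of 0.998 (edgeR adjusted p = 0.638), so the mean change of the group missed the threshold. That p does not measure the gap between the groups in either sex alone. The neighbors of Mid1ip1 in the annotation were near their WT level, Tspan7 at 0.03 and Bcor at -0.05. The transgene lies on the same chromosome, and its part in this result was not tested.

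**Figure D4:**
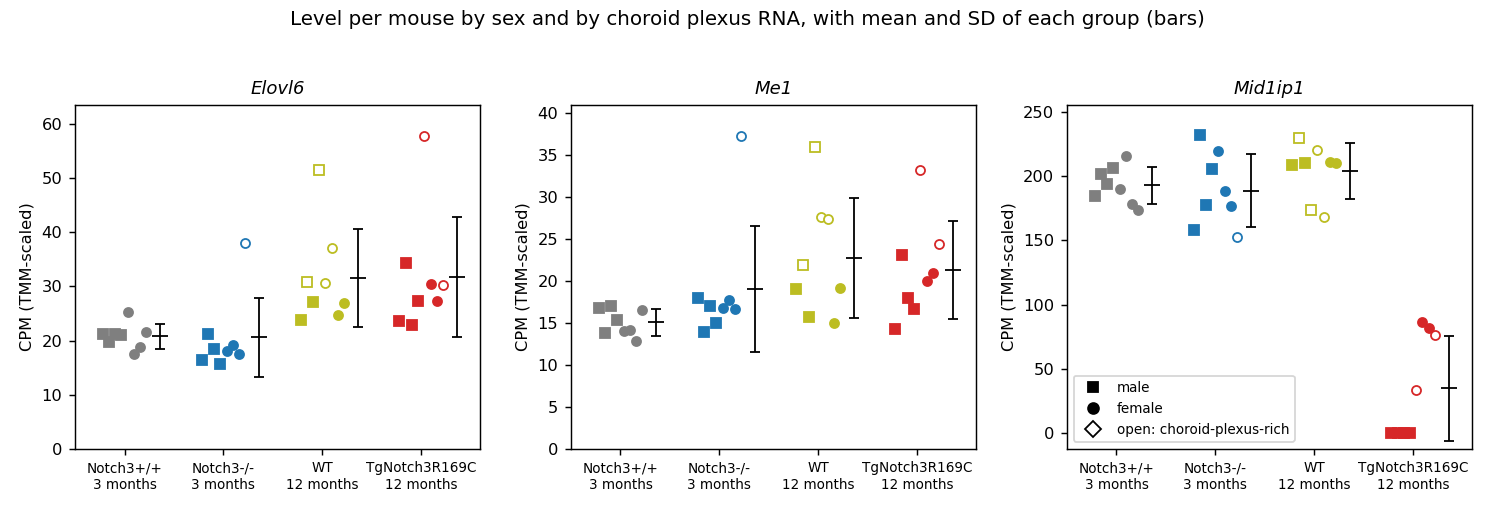
TMM-scaled CPM (vertical axis) of Elovl6, Me1 and Mid1ip1 in each mouse, males as squares and females as circles, with open symbols for libraries rich in choroid plexus RNA and bars for the mean and SD of 8 mice. Open symbols are the highest Elovl6 and Me1 values of the Notch3-/-, WT and TgNotch3R169C groups, and Mid1ip1 is at most 0.283 CPM in TgNotch3R169C males and 33.4 to 86.7 CPM in females.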

How the data were processed

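Per the labels, total RNA of brain arteries was made into poly(A)-selected, stranded libraries (150 ng RNA). The deposited values are raw counts of reads on Ensembl genes, which the authors did not normalize. Per the submitters' processing notes, the tools were bcl2fastq 2.20.0.422, cutadapt 1.10, Bowtie2 2.2.8, STAR 2.5.3a and HTSeq 0.6.1p1, with build mm39, and no role is given for each. Promoters come from RefSeq on GRCm38.p6, and no coordinates of the count table are given.

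The counts were fitted with edgeR 4.0.16 under R 4.3.3 (filterByExpr, TMM, quasi-likelihood test, 2-sided) over all genes of the 2 groups compared, with Benjamini-Hochberg adjustment and a threshold of 0.05. Replicates were separate mice. CPM values are TMM-scaled, log2 CPM uses a prior count of 2, intervals are 95% from the fit, and levels per kilobase use GENCODE vM21 exon lengths. The study's own test was DESeq2, run here (1.42.0) with limma voom (3.58.1) as an alternative. Fully described genes are members called in a comparison or, where fewer than 4 were called, the 4 of smallest p. Members, gene lists and tests were chosen with earlier results of these data known. Covariates for choroid plexus and sex, subsets by sex, and the fits without 7 libraries (choroid list mean above 6 log2 CPM) were added after seeing the data. No pair of libraries of a group was a duplicate.

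In simulated data edgeR recovered 17.9% of genes changed by 0.25, 46.3% by 0.5 and 77.3% by 1 on the log2 scale in the TgNotch3R169C design (17599 genes, 9.62% false calls), and 11.9%, 46.3% and 71.2% in the Notch3-/- design (17571 genes, 2.27% false calls). DESeq2 made 19.9% and 10.8% false calls there. Each design was simulated in 1 draw, with the spread as estimated by edgeR and without differences in tissue makeup between libraries. The rates in the real data may therefore differ, for either method.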

Additional observations from a re-analysis of the deposited data

Results flagged for a closer look

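For 2 members the change in TgNotch3R169C mice differed from that in Notch3-/- mice by the interaction test, Sqle by 0.58 and Sc5d by 0.27 on the log2 scale. The test reuses the TgNotch3R169C values with which the members were chosen.

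In 9 of the 52 groups of 8 mice examined, 1 mouse lay far from the others, where chance gives about 1 in 20, or 2.6. The measure is the gap to the nearest mouse divided by the whole range of the group, with a limit of 0.526. In Notch3-/- replicate 8, rich in choroid plexus RNA, this ratio was 0.826 for Me1 (37.2 CPM, next mouse 18.0), 0.757 for Elovl6 (38.1, next 21.2) and 0.564 for the fatty acid branch mean (6.71 log2 CPM, next 6.44). In TgNotch3R169C replicate 5, also rich in it, the ratio was 0.670 for Elovl6 (57.8 CPM, next 34.4). TgNotch3R169C replicate 2 was the highest mouse for Sqle (0.529, 81.5 CPM, next 67.9) and for Srebf2 (0.617, 286.9 CPM, next 263.8). Without it both genes were still called. The others were Idi1 in Notch3+/+ replicate 5 (0.673, 2.78 CPM, next 1.54), Acaca in WT replicate 8 (0.561, 33.3 CPM, next 29.8) and Scd1 in Notch3+/+ replicate 4 (0.545, 287.1 CPM, next 227.1).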

How the results depend on the processing

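Of the branch medians in alternatives run on both sexes together, the fatty acid median in Notch3-/- mice (0.031) changed sign, to -0.025 with the oligodendrocyte and -0.059 with the smooth muscle list as a covariate, and the other sterol and fatty acid medians kept theirs. The medians moved by more than the spread between mice only with the smooth muscle list as a covariate, where the sterol median was -0.14 in Notch3-/- mice and -0.16 between the control groups. Fits of 1 sex alone gave values only, and there the fatty acid median in Notch3-/- mice was -0.07 in males and 0.15 in females. In Notch3-/- mice 0 members were called under every alternative. In TgNotch3R169C mice the number called was 1 at a threshold of 0.01, 1 without the filter, 10 by DESeq2, 1 with the smooth muscle covariate, 2 with the choroid plexus covariate and 0 without the libraries rich in choroid plexus RNA. Between the control groups it was 0 at 0.01, 7 at 0.1, 2 without the filter, 7 by DESeq2, 2 by voom, and 0 with the oligodendrocyte, smooth muscle or choroid plexus covariate or without those libraries. For the difference between the mutants it was 0 at 0.01, 0 without the filter, 4 by DESeq2, 1 with the oligodendrocyte covariate and 0 without those libraries. Over all genes, 15 of 17731 were called in TgNotch3R169C mice with the choroid plexus covariate and 2 of 18097 without those libraries. For DESeq2 and the other settings of this paragraph the number over all genes is not given, so those counts of members stand without a background. Some of these fits hold fewer mice or more genes, and the cause of the shifts was not tested.

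Leaving out 1 library at a time gave 1 to 5 members called in TgNotch3R169C mice, 1 to 4 between the control groups and 1 to 3 for the difference. The number of all genes called in these fits is not given, so the counts stand without a background. In TgNotch3R169C mice 1 member was called without TgNotch3R169C replicate 3 or 4 or WT replicate 1, 5 or 7, 2 without TgNotch3R169C replicate 1, 7 or 8 or WT replicate 2, 3, 4 or 6, and 5 without WT replicate 8. Between the control groups 1 was called without Notch3+/+ replicate 7 or WT replicate 5 or 6, and 2 without Notch3+/+ replicate 1, 2 or 3 or WT replicate 2. For the difference, Sc5d was called in all 32 fits, and Sqle was lost without Notch3+/+ replicate 2, 5 or 7, Notch3-/- replicate 4 or 5, TgNotch3R169C replicate 2 or WT replicate 5.

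Only members near 0 changed sign in TgNotch3R169C mice. Without the libraries rich in choroid plexus RNA, Acat2 was at -0.036, Lss at -0.0027, Tm7sf2 at -0.054, Ebp at 0.038 and Me1 at 0.13. With the choroid plexus covariate Tm7sf2 was at -0.023 and Me1 at 0.12. In females alone Ggps1 was at 0.015, Tm7sf2 at -0.037 and Me1 at 0.13, and in males alone Ebp was at 0.021, Scap at 0.046 and Elovl6 at -0.30. Elovl6 was at -0.048 by voom, -0.011 with sex as a term and -0.0096 with the replicate block. With 1 library left out, Tm7sf2 ran from -0.020 to 0.036, Ebp from -0.043 to 0.011, Elovl6 from -0.17 to 0.14 and Me1 from -0.21 to 0.030.

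The groups share replicate numbers, but correlations of same-numbered mice ran from -0.14 to 0.34 in the Notch3-/- comparison, -0.25 to 0.42 in the TgNotch3R169C comparison and -0.19 to 0.24 between the control groups, and not every mouse correlated best with its own number, so the numbers were not taken to pair the mice. The replicate number as a block gave 0 members called in Notch3-/- mice, 1 in TgNotch3R169C mice, 3 between the control groups and 2 for the difference, and in TgNotch3R169C mice branch medians of 0.20 and 0.24. The number of all genes called with the block is not given.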
